A study of Mus musculus with 15 samples.

Results

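The STAT genes encode the transcription factors that carry cytokine signals from receptor to nucleus, and 6 of them were examined here: Stat2, Stat3, Stat4, Stat5a, Stat5b and Stat6. They were chosen by Entrez gene ID from the 27179 genes of the count table. All 6 passed the filter on low counts, with levels between 38.1 and 508 CPM across 15 libraries. CPM is the read count of a gene scaled to the size of its library, here after TMM scaling. The libraries came from mouse CD4 T cells grown for 3.5 days on anti-CD3 and anti-CD28 under conditions named Th1, Th17 and Tfh, with 5 libraries in each. Every group carried the genotype B6.Cg-Ifngtm3.1Lky-Il17atm1.1Lky, which holds altered alleles of Ifng and Il17a, so no condition represents cells without them. The design text gives interferon gamma positivity as the sort of Th1 cells, and CXCR5 positivity without IL-17A as that of Tfh cells. The sources used here do not give the sort of Th17 cells, the cytokines added to each culture or the age of the mice. Cells were made in culture, so the Tfh libraries hold cells sorted by phenotype and not cells taken from a follicle.

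STAT proteins wait in the cytoplasm until a Janus kinase bound to a cytokine receptor phosphorylates them, after which they pair and enter the nucleus. In CD4 T cells, STAT4 acts downstream of IL-12 and drives Th1 cells, STAT6 acts downstream of IL-4 and drives Th2 cells, and STAT3 acts downstream of IL-6, IL-21 and IL-23 and is needed for Th17 cells. STAT5A and STAT5B are close paralogues downstream of IL-2 and restrain Tfh and Th17 programmes, while STAT2 joins IRF9 in the complex that answers type I interferon. Messenger RNA shows the level of each transcript, and not how much protein is present or how much of it is phosphorylated.

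Stat5b, Stat5a and Stat3 lie side by side on chromosome 11, in the GRCm38 assembly. Stat5b occupies 100780731 to 100859004 on the minus strand, Stat5a 100859351 to 100885169 on the plus strand and Stat3 100886806 to 100939594 on the minus strand. Stat5b and Stat5a are 346 bases apart, and Stat5a and Stat3 are 1636 bases apart. Stat6 (127642955 to 127660987) and Stat2 (128270498 to 128292853) are both on the plus strand of chromosome 10 and are separated by 609510 bases. Stat4 lies on the plus strand of chromosome 1, from 51987106 to 52107189. These positions are from RefSeq, where Stat5a and Stat3 do not overlap. In GENCODE vM21, annotated exons of Stat3 and Stat5a on opposite strands share 72 bases, and exons of Stat6 share 40 bases with those of Nab2. Exons of Stat4 there share 1033 bases with those of Gm28177 on the same strand. The annotation of the counting is not given, so whether these overlaps entered the counts is not known. Of all runs of 50 bases in the Stat5a transcripts, 15.3% also occur in Stat5b, and 11.1% of those in Stat5b occur in Stat5a. The sources used here do not say whether the counting split or dropped such reads, so the division between Stat5a and Stat5b carries that uncertainty.

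RefSeq start sites gave 9 promoter windows for the 6 genes, each reaching from 250 bases before a start to 50 bases after it. Windows were searched on both strands for the STAT-binding motif known as GAS (TTCNNNGAA), for the wider-spaced form favoured by STAT6 (TTC and GAA with 4 bases of any kind between them), and for the core of the interferon-stimulated response element, ISRE, bound by the STAT2 and IRF9 complex (GAAA and GAAA with 2 bases of any kind between them). GAS was in 0 of the 9 windows and in 8.3% of all 32851 windows of the genome. The wider-spaced form was in 1 of the 9, against 6.95% of all windows, and the ISRE core in 2 of the 9, against 3.44%. The windows that held a match belonged to Stat2 and to the second start of Stat4, and their bases before the start are shown with the matches in capitals. In Stat2 the first match, 222 bases before the start, is an ISRE core read on the other strand, and the next, 210 bases before it, is the wider-spaced form. In Stat4 the ISRE core begins 97 bases before the start. A match describes the letters and shows no binding.
Stat2, chr10:128270248-128270497, plus strand: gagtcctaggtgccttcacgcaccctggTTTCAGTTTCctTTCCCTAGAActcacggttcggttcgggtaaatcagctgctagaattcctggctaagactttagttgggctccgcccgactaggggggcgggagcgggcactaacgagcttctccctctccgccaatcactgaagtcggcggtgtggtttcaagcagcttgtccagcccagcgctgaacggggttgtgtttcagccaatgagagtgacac
Stat4, second start, chr1:52007990-52008239, plus strand: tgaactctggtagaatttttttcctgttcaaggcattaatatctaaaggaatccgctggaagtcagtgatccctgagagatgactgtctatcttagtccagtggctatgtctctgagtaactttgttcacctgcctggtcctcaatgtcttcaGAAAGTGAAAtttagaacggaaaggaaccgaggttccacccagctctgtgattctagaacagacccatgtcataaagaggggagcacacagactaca

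The paralogues also resemble each other near a start. Between the window of the second Stat5a start and that of the second Stat5b start, an alignment of 104 columns held 83 identical bases, or 79.8%. The 30 columns without a gap that held the most identical bases are shown to make this likeness visible, with the 28 identical bases in capitals. They begin 49 bases before the second start of Stat5a and 40 bases before that of Stat5b.
Stat5a, second start, chr11:100860435-100860464, plus strand: GCAGCTGACCTTTgAGgAGGAAATCGCTGC
Stat5b, second start, chr11:100822581-100822610, minus strand: GCAGCTGACCTTTtAGaAGGAAATCGCTGC

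Libraries held 4871468 to 25200382 counted reads, and 12591 genes passed the filter. The marker genes fitted the labels: Tbx21 and Ifng together reached 907 to 1132 CPM in Th1 and at most 5.47 CPM elsewhere. Bcl6 and Cxcr5 together reached 229 to 347 CPM in Tfh, 64.6 to 128 CPM in Th17 and 16.8 to 30.4 CPM in Th1. Il17a was at 189 to 254 CPM in Th17, 4.83 to 20.3 CPM in Tfh and at most 0.17 CPM in Th1. The summed level of 6 general CD4 T cell markers was 3193 to 3756 CPM in Th1, 4550 to 5236 CPM in Th17 and 5333 to 6684 CPM in Tfh, with Cd4 itself at a mean of 593, 551 and 552 CPM. Markers of B cells, myeloid cells and erythroid cells summed to at most 2.59 CPM, and Pax5 had no count in any library. The 4 NK cell markers summed to 4.6 to 6.03 CPM in Th1, 2.17 to 4.67 CPM in Th17 and at most 2.12 CPM in Tfh. Eomes had means of 4.5, 0.12 and 0.264 CPM and Klre1 of 0.881, 3.15 and 0.546 CPM in Th1, Th17 and Tfh, Klrb1c reached at most 0.741 CPM, and Ncr1 had no count. The gamma-delta T cell gene Trdc was at 19.6 to 42.6 CPM in Th1, 4.5 to 8.29 CPM in Th17 and 6.57 to 20.3 CPM in Tfh. The CD8 T cell gene Cd8a was at 1.12 to 10.4, at most 0.937 and 0 CPM, while Cd8b1 had means of 11.4, 10.3 and 7.34 CPM. These cells' part in the differences between Th1 and the other conditions was not tested. In bulk samples, fewer cells of a type and less RNA per cell cannot be told apart. Nothing in the labels says that libraries of a condition came from separate cultures or animals, so the p-values measure the spread between these libraries, which may be technical.

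Libraries of 1 condition also differed in how their deviation from the condition mean followed the GC content of genes, with Spearman coefficients across genes from -0.65 to 0.70. In Th1 these were 0.69 and 0.70 in libraries 3 and 4 and -0.65 to -0.31 in the other 3. Levels of 5 Stat genes in Th1 differed between the same libraries. Stat4 has the lowest GC content of the 6 in its longest transcript, 45.4% against a median of 48.5% over all genes, and was lowest in Th1 libraries 3 and 4. The other 5 have 51.9% to 57.9%, and Stat3, Stat5a, Stat5b and Stat6 were highest in those same libraries. The part of GC content in any single level was not tested, and values with a correction for GC content are given where they bear on a call.

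Compared with Th1, both other conditions had less Stat5a, Stat4 and Stat2 and more Stat3, while Stat5b and Stat6 did not pass the test in either comparison. Tfh against Th1 and Th17 against Th1 share the Th1 libraries, so the 2 sets of values are given side by side and are not independent. A gene was called when its adjusted p in edgeR's quasi-likelihood test, with Benjamini-Hochberg adjustment over all 12591 genes, was under 0.05. In Tfh against Th1, 1 of the 6 genes rose and 3 fell, where 49.3% of all genes were called, 24.1% higher and 25.2% lower. In Th17 against Th1, again 1 rose and 3 fell, where 36.9% of all genes were called, 19.0% higher and 17.8% lower. In Tfh against Th17, 1 gene, Stat5a, fell and the other 5 did not pass, where 16.8% of all genes were called, 6.8% higher and 9.98% lower. Libraries of the 2 conditions did not overlap for 3 of the 6 genes in Tfh against Th1, for 3 in Th17 against Th1 and for 1 in Tfh against Th17, and over all genes for 34.3%, 28.8% and 14.5%. With 6 members these shares show nothing particular to the family.

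**Figure D1:**
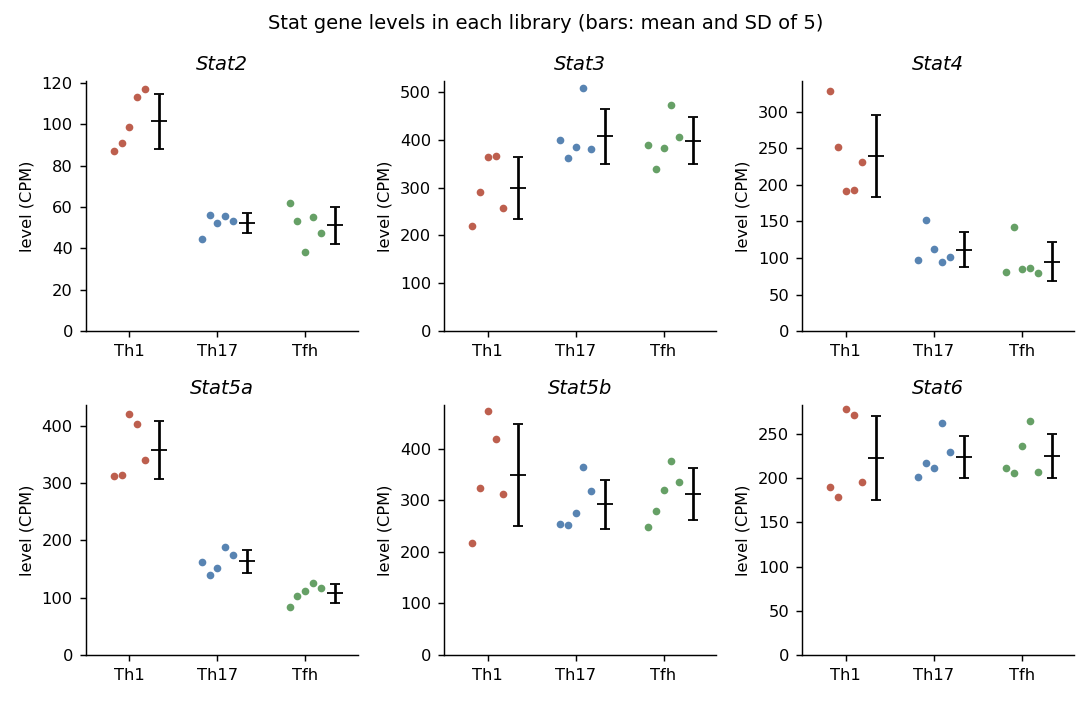
Level of each Stat gene in CPM in each of the 15 libraries, with the mean and SD of the 5 libraries of a condition. Stat5a is lower in every Tfh library than in every Th17 library, and lower in every Th17 library than in every Th1 library, while the Stat6 values of the 3 conditions lie over one another.

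Stat5a, activated by IL-2 through the Janus kinases, was the member that separated all 3 conditions. Its levels in Th1 were 313, 315, 420, 403 and 340 CPM. In Th17 they were 163, 139, 151, 189 and 174 CPM, and in Tfh 82.9, 102, 112, 126 and 117 CPM. No library of one condition reached into the range of another. The means were 358 ± 50.2, 163 ± 19.5 and 108 ± 16.5 CPM (SD, n = 5 each). Stat5a was 3.31-fold lower in Tfh than in Th1, a log2 fold change of -1.73 ± 0.14 (SE; edgeR adjusted p = 7.51e-09). It was 2.20-fold lower in Th17 than in Th1, at -1.14 ± 0.14 (edgeR adjusted p = 2.43e-06). Between Tfh and Th17 it was 1.51-fold lower in Tfh, at -0.59 ± 0.14 (edgeR adjusted p = 0.00519), and lower in 5 of 5 Tfh libraries than in any Th17 library.

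Stat5b, its neighbour and paralogue, did not share this order. Its levels were 218, 325, 473, 419 and 312 CPM in Th1. They were 254, 253, 275, 364 and 318 CPM in Th17 and 248, 279, 321, 377 and 335 CPM in Tfh. The groups overlapped throughout, and the spread was widest in Th1. The log2 differences were -0.16 for Tfh against Th1 (95% interval -0.54 to 0.22), -0.25 for Th17 against Th1 (-0.63 to 0.12) and 0.09 for Tfh against Th17 (-0.29 to 0.47), none of which passed the edgeR test. These intervals leave room for changes of up to 0.63 in log2 units and do not show that Stat5b was equal. With GC content and replicate number both in the fit, Stat5b was lower in Th17 than in Th1 by an edgeR adjusted p of 0.0266, at -0.23.

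The balance between the paralogues was therefore examined within each library, which cancels its depth. The ratio of Stat5b to Stat5a counts was 0.696, 1.03, 1.12, 1.04 and 0.918 in Th1. It was 1.56, 1.82, 1.82, 1.92 and 1.83 in Th17 and 2.99, 2.73, 2.87, 3.0 and 2.86 in Tfh. The 3 ranges were apart, with means of 0.962 ± 0.166, 1.79 ± 0.135 and 2.89 ± 0.110 (SD, n = 5 each). By exact two-sided permutation tests over the 252 regroupings of 10 libraries, each of the 3 comparisons gave p = 0.00794, the smallest such a design allows, and 0.0119 after adjustment over the 9 ratio tests. The log2 difference of the ratio was 1.6 for Tfh against Th1, 0.91 for Th17 against Th1 and 0.69 for Tfh against Th17. Per kilobase of exon the mean ratio was 0.689 in Th1, 1.28 in Th17 and 2.07 in Tfh. On this scale Stat5a was above Stat5b in every Th1 library, and Stat5b above Stat5a in every library of the other conditions. The order within Th1 rests on exon lengths of 5539 bases for Stat5b and 3968 bases for Stat5a in GENCODE vM21. The annotation of the counting is not given, and on counts the Th1 ratios ran from 0.696 to 1.12. Since the paralogues share sequence, a split of shared reads would enter both terms of this ratio.

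Reads of the paralogues were also added together, which removes the question of how counted reads were divided. Any shared reads that the counting dropped would be missing from the sum as well. The sum was 531 to 893 CPM in Th1, 392 to 554 CPM in Th17 and 331 to 503 CPM in Tfh. It was lower than in Th1 by a log2 difference of -0.75 ± 0.15 in Tfh (SE; edgeR adjusted p = 0.000495) and of -0.63 ± 0.15 in Th17 (edgeR adjusted p = 0.00298). Between Tfh and Th17 the sum differed by -0.12 ± 0.15 (edgeR adjusted p = 0.666). Stat5a alone passed the test between Tfh and Th17, and the total did not.

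**Figure D2:**
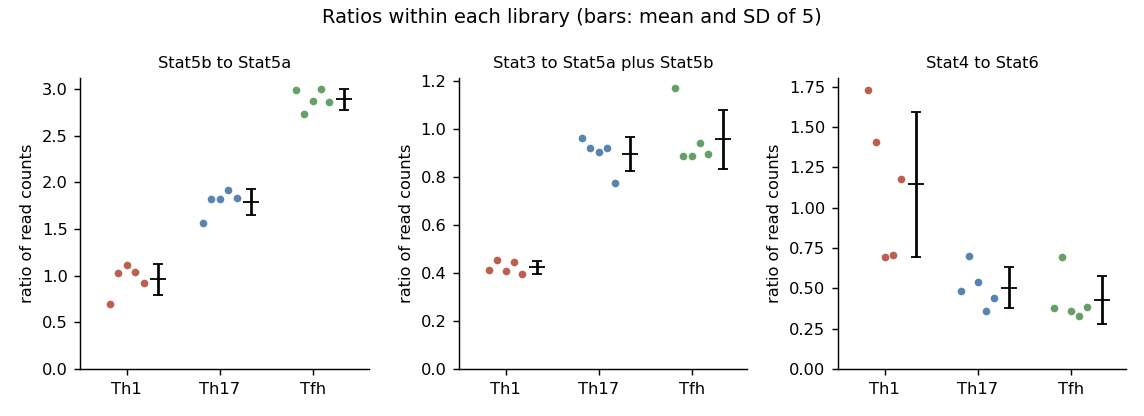
Ratio of read counts between Stat genes within each of the 15 libraries, with the mean and SD of 5 libraries beside the points. Stat5b to Stat5a steps up from Th1 to Th17 to Tfh without overlap, Stat3 to Stat5a plus Stat5b is lowest in Th1, and Stat4 to Stat6 spreads most within Th1, from 0.693 to 1.73.

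Stat4, which carries the IL-12 signal, was highest in Th1. Its levels there were 329, 252, 192, 193 and 232 CPM. In Th17 they were 96.8, 152, 113, 94.0 and 102 CPM and in Tfh 80.4, 142, 85.4, 86.8 and 79.8 CPM. Every Th1 library was above every other library, and replicate 2 was the highest within both Th17 and Tfh. Stat4 was 2.52-fold lower in Tfh than in Th1, a log2 fold change of -1.34 ± 0.19 (SE; edgeR adjusted p = 1.52e-05). In Th17 it was 2.15-fold lower, at -1.10 ± 0.19 (edgeR adjusted p = 0.000177). Tfh and Th17 differed by -0.23 ± 0.19 (edgeR adjusted p = 0.461), a value that was -0.41 without Tfh replicate 2 (adjusted p = 0.146) and -0.10 without Th17 replicate 2 (adjusted p = 0.791). In all conditions Stat4 remained readily measured, at a mean of 112 ± 23.6 CPM in Th17 and 94.9 ± 26.6 CPM in Tfh (SD, n = 5 each).

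Against Stat6, the factor of the opposing Th2 programme, the ratio of Stat4 counts was 1.15 ± 0.451 in Th1, 0.504 ± 0.127 in Th17 and 0.429 ± 0.148 in Tfh (SD, n = 5 each). The exact permutation test gave an adjusted p of 0.0119 for Tfh against Th1, 0.0204 for Th17 against Th1 and 0.402 for Tfh against Th17. Th1 and Th17 overlapped, since the lowest Th1 ratio was 0.693 and the highest Th17 ratio 0.700. Th1 libraries 3 and 4, with GC coefficients of 0.69 and 0.70, had ratios of 0.693 and 0.709, and the other Th1 libraries 1.18 to 1.73. The ratios were not corrected for GC content, and its part in them was not tested. The difference between Th17 and Th1 reached an exact adjusted p of 0.0510 when Th17 replicate 1, 3, 4 or 5 was left out.

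Stat2, the partner of IRF9 in the response to type I interferon, was also highest in Th1. Its levels were 87.2, 91.2, 98.9, 113 and 117 CPM in Th1. They were 44.4, 56.2, 52.5, 55.6 and 53.5 CPM in Th17 and 61.9, 53.1, 38.1, 55.3 and 47.6 CPM in Tfh. Th1 stood apart from both other conditions, which overlapped each other. Stat2 was 1.98-fold lower in Tfh than in Th1, a log2 fold change of -0.99 ± 0.14 (SE; edgeR adjusted p = 1.44e-05). It was 1.93-fold lower in Th17, at -0.95 ± 0.14 (edgeR adjusted p = 3.43e-05). Between Tfh and Th17 the difference was -0.04, with a 95% interval of -0.34 to 0.26.

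Stat3, the factor downstream of IL-6 and IL-21, was the only member higher outside Th1, and by a smaller step. Its levels were 219, 291, 364, 365 and 257 CPM in Th1. They were 400, 361, 385, 508 and 380 CPM in Th17 and 388, 338, 383, 473 and 405 CPM in Tfh. In each of the other conditions 4 of 5 libraries were above all Th1 libraries, and 1 fell within the Th1 range. In Tfh, Stat3 exceeded its Th1 level 1.33-fold, a log2 fold change of 0.41 ± 0.15 (SE; edgeR adjusted p = 0.0291). It was 1.36-fold higher in Th17, at 0.44 ± 0.15 (edgeR adjusted p = 0.0254). Tfh and Th17 differed by -0.03, with a 95% interval of -0.34 to 0.28.

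The Stat3 calls lay close to the threshold. In Tfh against Th1, leaving out Th1 replicate 1, 2 or 5 gave an edgeR adjusted p of 0.0714, 0.0575 or 0.0903, and leaving out Tfh replicate 4 or 5 gave 0.0818 or 0.0623. In Th17 against Th1, leaving out Th1 replicate 1, 2 or 5 gave 0.0583, 0.0528 or 0.0938, and leaving out Th17 replicate 3 or 4 gave 0.0530 or 0.108. With a correction for GC content the differences were 0.45 ± 0.09 in both comparisons, and the edgeR adjusted p was 0.000204 for Tfh and 0.000284 for Th17.

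Within a library, the ratio of Stat3 to the sum of Stat5a and Stat5b counts set Th1 apart from both other conditions without overlap. It was 0.412, 0.455, 0.407, 0.444 and 0.394 in Th1. It was 0.960, 0.921, 0.902, 0.918 and 0.773 in Th17 and 1.17, 0.886, 0.884, 0.940 and 0.895 in Tfh. Every library of Th17 and Tfh was above every Th1 library. Against Th1 the ratio was 2.25-fold higher in Tfh and 2.12-fold higher in Th17, each with an exact permutation adjusted p of 0.0119. Tfh and Th17 overlapped, with an exact adjusted p of 0.484.

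Stat6, the IL-4 factor, had nearly the same mean in all 3 conditions. It was 223 ± 47.9 CPM in Th1, 224 ± 23.6 CPM in Th17 and 225 ± 25.6 CPM in Tfh (SD, n = 5 each). The libraries ran from 179 to 278 CPM in Th1, from 201 to 262 CPM in Th17 and from 206 to 265 CPM in Tfh, so the groups lay over one another. The log2 differences were 0.02 for Tfh against Th1 (95% interval -0.28 to 0.31), 0.01 for Th17 against Th1 (-0.29 to 0.31) and 0.01 for Tfh against Th17 (-0.29 to 0.30). The sign of both differences from Th1 turned with the scaling of the libraries, and that of Tfh against Th17 when single libraries were left out.

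**Figure D3:**
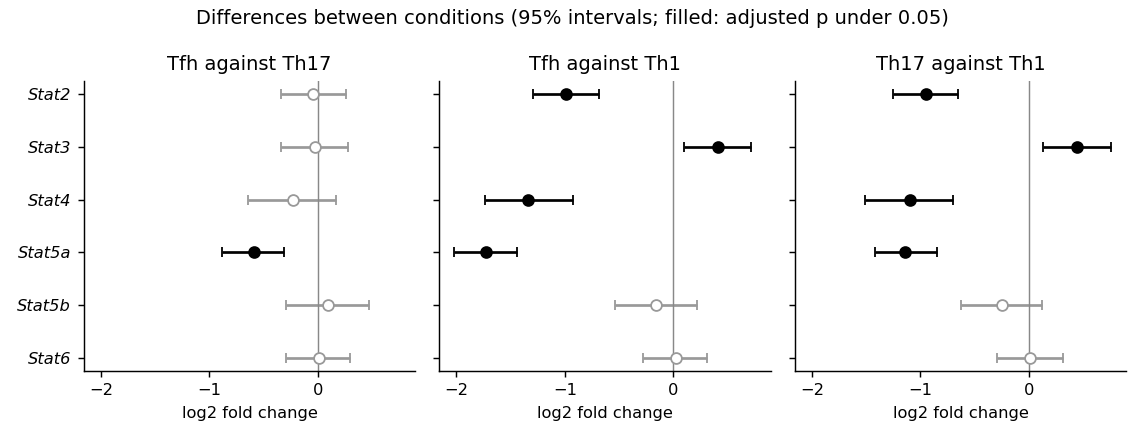
Log2 fold change of each Stat gene in the 3 comparisons, with the 95% interval of the edgeR fit and filled marks where the adjusted p was under 0.05. Stat5a is the one gene with a filled mark in all 3 comparisons, and the intervals of Stat5b and Stat6 include 0 in each.

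Levels of different genes were compared only per kilobase of exon. In Th1 the order of the mean levels was Stat5a at 90.3, Stat4 at 76.1, Stat5b at 63.1, Stat6 at 59.0, Stat3 at 48.0 and Stat2 at 23.1 CPM per kilobase. In Th17 it was Stat3 at 65.3, Stat6 at 59.4, Stat5b at 52.9, Stat5a at 41.1, Stat4 at 35.4 and Stat2 at 11.9 CPM per kilobase. In Tfh it was Stat3 at 63.8, Stat6 at 59.6, Stat5b at 56.4, Stat4 at 30.2, Stat5a at 27.2 and Stat2 at 11.6 CPM per kilobase. Stat2 was last in every library, and Stat3 was at rank 5 in every Th1 library and at rank 1 or 2 in every Th17 and Tfh library. Neighbours in the middle of the order changed places between libraries: in Th1 Stat4 ranged from rank 1 to rank 4, and in Tfh Stat6 from rank 1 to rank 3.

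As a share of the 6 summed per kilobase, Stat5a went from 25.1% ± 1.02 in Th1 to 15.5% ± 1.21 in Th17 and 10.9% ± 1.01 in Tfh (SD, n = 5 each). Stat3 went from 13.3% ± 1.71 to 24.5% ± 1.87 and 25.7% ± 2.07. Stat4 held 21.7% ± 6.92 in Th1 against 13.5% ± 3.36 in Th17 and 12.2% ± 3.67 in Tfh. The sum itself was 360 ± 37.9 CPM per kilobase in Th1, 266 ± 24.2 in Th17 and 249 ± 22.9 in Tfh, so a share can differ without a difference in level, as the Stat6 shares of 16.3%, 22.3% and 24.0% did.

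**Figure D4:**
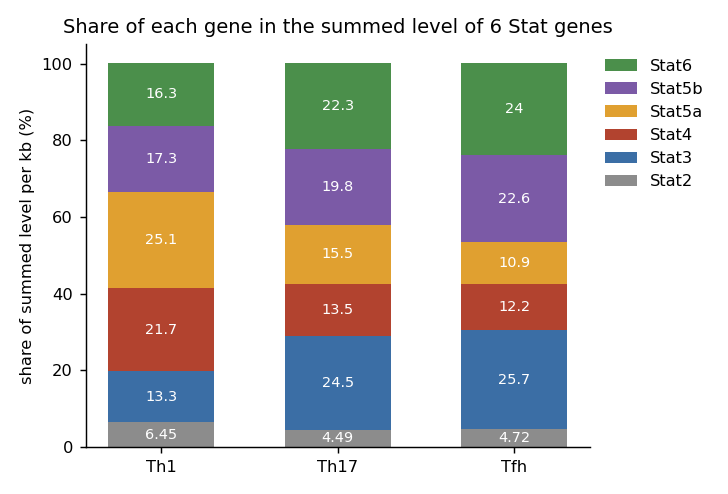
Share of each Stat gene in the summed level of the 6 genes, in percent of CPM per kilobase of exon, as the mean of 5 libraries per condition. Stat5a and Stat4 hold 25.1% and 21.7% in Th1, and Stat3 and Stat6 hold the highest shares in Th17 and Tfh.

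Only Stat4 and Stat5a had condition means more than 2-fold apart in the widest pair, and for these the most similar patterns among 8641 genes were sought. Likeness was the root-mean-square difference of log2(CPM + 1), centred on each gene's mean, over the 15 libraries, and is a description. Closest to Stat5a were Atf4, a transcription factor of the stress response, at 0.096, Plagl2, a zinc finger factor, at 0.103 and Cd81, a tetraspanin, at 0.174, where the median over all genes was 0.84. Atf4 had means of 515 ± 84.0 CPM in Th1, 216 ± 10.1 CPM in Th17 and 147 ± 16.7 CPM in Tfh (SD, n = 5 each). Closest to Stat4 were Rpl17, a ribosomal protein gene, at 0.206, Tmed10, a cargo receptor of the secretory pathway, at 0.207 and Slamf1, a receptor of T cell contacts, at 0.213, where the median was 0.77. The genes nearest to Stat4 were thus less like it than those nearest to Stat5a were to that gene.

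The kinases that phosphorylate the STATs were measured in the same libraries. Of the 4 Janus kinases, 2 rose in Tfh against Th1, 1 rose and 1 fell in Th17 against Th1, and 1 rose in Tfh against Th17. Their median log2 fold changes were 0.54, 0.19 and 0.38, beside -0.01, 0.03 and -0.01 over all genes tested. Over all genes, 49.3%, 36.9% and 16.8% were called in Tfh against Th1, Th17 against Th1 and Tfh against Th17. The counts in this list and in the receptor lists below stand beside these shares. Jak1, the kinase shared by most of these receptors, was at 220 ± 17.7 CPM in Th1, 383 ± 42.1 CPM in Th17 and 543 ± 48.5 CPM in Tfh (SD, n = 5 each). Its 3 groups did not overlap, and it passed the edgeR test in each comparison, with an adjusted p of 0.00342 between Tfh and Th17. The order of Jak1 across the conditions was the reverse of that of Stat5a. Jak2 was higher in Tfh than in Th1 by 0.88 ± 0.21 (edgeR adjusted p = 0.00209), and Jak3, the kinase of the common gamma chain, did not pass in any comparison. Tyk2 was lower in Th17 than in Th1 by -0.51 ± 0.17 (edgeR adjusted p = 0.0248), with an adjusted p of 0.0511 without Th1 replicate 4 and 0.0710 without Th17 replicate 1.

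Among receptors upstream of STAT3, 6 of 8 listed genes were tested. In Tfh against Th1, 3 rose and 3 fell, in Th17 against Th1, 4 rose and 2 fell, and in Tfh against Th17, 2 rose and 2 fell, with medians of 0.13, 0.88 and -0.01. Il6st, the shared signalling chain gp130, was at 26.6 ± 2.50 CPM in Th1, 57.1 ± 2.33 CPM in Th17 and 163 ± 24.4 CPM in Tfh (SD, n = 5 each), with no overlap and an edgeR adjusted p of 3.01e-07 between Tfh and Th17. Il6ra, the IL-6 binding chain, rose with it against Th1, to 52.9 CPM in Th17 and 70.4 CPM in Tfh from 24.7 CPM. The receptor of IL-21 went the other way: Il21r was at 252 ± 52.2 CPM in Th1, 112 ± 19.3 CPM in Th17 and 82.6 ± 13.0 CPM in Tfh. Il23r, the IL-23 binding chain, was at 31.4 ± 16.2 CPM in Th1, 57.9 ± 21.2 CPM in Th17 and 13.5 ± 3.0 CPM in Tfh, and fell without overlap in Tfh against Th17 by 2.10 on the log2 scale (edgeR adjusted p = 0.000166). Its rise in Th17 against Th1 (edgeR adjusted p = 0.0292) was lost in 7 of 26 alternatives, with an adjusted p of up to 0.0932. Il10ra, the IL-10 binding chain, was at 80.3 CPM in Th1, 4.22 CPM in Th17 and 1.71 CPM in Tfh, and fell in both comparisons with Th1. Its call between Tfh and Th17 (edgeR adjusted p = 0.0396) was lost in 12 of 26 alternatives, with an adjusted p of up to 0.165. Il27ra rose in Tfh against Th17 by 0.59 ± 0.17 (edgeR adjusted p = 0.0239), with an adjusted p of 0.0683, 0.0620 and 0.0530 without Th17 replicates 1, 2 and 3 and 0.0678 without Tfh replicate 4.

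The IL-12 receptor upstream of STAT4 has 2 chains. Both fell in Tfh against Th1 and in Tfh against Th17, and 1 fell in Th17 against Th1, with medians of -3.93, -1.34 and -2.59. Il12rb2, the inducible chain, was at 1649 ± 106 CPM in Th1, 56.2 ± 10.4 CPM in Th17 and 14.5 ± 7.39 CPM in Tfh (SD, n = 5 each). Its groups did not overlap, and the log2 fold changes were -6.82 ± 0.29 for Tfh against Th1 (edgeR adjusted p = 9.27e-13) and -1.95 ± 0.24 for Tfh against Th17 (edgeR adjusted p = 1.61e-05). Il12rb1, the chain shared with the IL-23 receptor, was at 85.4, 69.5 and 41.5 CPM and fell in Tfh against Th1 by 1.04 on the log2 scale (edgeR adjusted p = 0.000454). Its fall in Tfh against Th17 (edgeR adjusted p = 0.0195) came to an adjusted p of 0.0591 without Th17 replicate 4, and to the same value without Tfh replicate 5. Il12rb2 fell far more than Stat4 itself, which kept about 94.9 CPM in Tfh.

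Of the 4 receptor genes tested upstream of STAT5, 1 rose and 1 fell in both comparisons with Th1 and 1 fell in Tfh against Th17, with medians of -0.11, 0.20 and -0.31. Il2ra, the high-affinity chain of the IL-2 receptor and itself a known STAT5 target, was at 5704 ± 345 CPM in Th1, 2857 ± 203 CPM in Th17 and 1391 ± 67.6 CPM in Tfh (SD, n = 5 each). Its groups did not overlap, and it followed the same order as Stat5a, with edgeR adjusted p of 6.36e-12, 1.47e-07 and 1.17e-06 for Tfh against Th1, Th17 against Th1 and Tfh against Th17. Il2rg, the common gamma chain, rose in both comparisons with Th1, from 449 CPM to 670 CPM in Th17 and 631 CPM in Tfh. Il2rb and Il7r did not pass in any comparison.

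Of 5 receptor genes and partners of STAT2, 1 rose and 1 fell in Tfh against Th1, 3 fell in Th17 against Th1, and 3 rose in Tfh against Th17, with medians of -0.11, -0.40 and 0.45. Ifnar1, a chain of the type I interferon receptor, was lowest in Th17, at 90.0 ± 6.63 CPM against 137 ± 10.3 CPM in Th1 and 126 ± 15.2 CPM in Tfh. Irf9, the partner of STAT2, was likewise lowest in Th17, at 61.2 ± 4.48 CPM against 80.7 ± 11.8 and 84.3 ± 6.90 CPM. Both were lower in Th17 than in Th1 (edgeR adjusted p = 0.000363 and 0.0169) and higher in Tfh than in Th17 (edgeR adjusted p = 0.00646 and 0.0154), a pattern that Stat2, lowest in both Th17 and Tfh, did not share. Ifnar2, the other chain of the type I interferon receptor, was at 87.7 ± 7.99 CPM in Th1, 90.5 ± 6.99 CPM in Th17 and 124 ± 16.7 CPM in Tfh. It did not pass in Th17 against Th1 (edgeR adjusted p = 0.805). In Tfh it was higher than in Th1 and in Th17 (edgeR adjusted p = 0.00233 and 0.0146). Ifnlr1, the receptor chain for interferon lambda, was at 4.45 CPM in Th1 and 0.0598 CPM in Th17, and had no count in Tfh.

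STAT6 has 2 listed receptor chains, of which 1 fell in Tfh against Th1, 1 rose and 1 fell in Th17 against Th1, and 2 fell in Tfh against Th17, with medians of -2.13, -0.64 and -1.49. Il4ra, the IL-4 receptor chain upstream of STAT6, was highest in Th17, at 280 ± 56.4 CPM against 191 ± 29.1 CPM in Th1 and 188 ± 21.5 CPM in Tfh, and passed against both (edgeR adjusted p = 0.00552 and 0.0104). Il13ra1, a chain of the IL-13 receptor, was low throughout, at 3.54, 0.99 and 0.159 CPM in Th1, Th17 and Tfh. Its call was lost in 14 of 24 alternatives in Tfh against Th17 (edgeR adjusted p of up to 0.103) and in 7 of 25 in Th17 against Th1 (up to 0.0978).

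**Figure D5:**
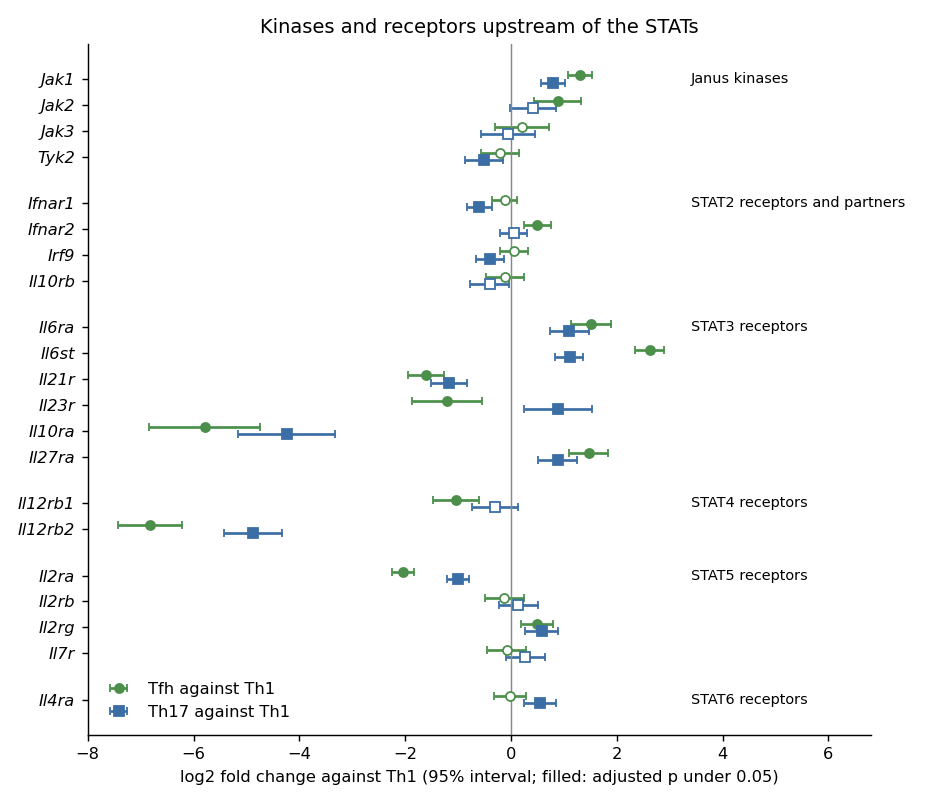
Log2 fold change against Th1 of Janus kinases and of receptor genes and partners upstream of each STAT, for Tfh and Th17, with the 95% interval of the edgeR fit and filled marks where the adjusted p was under 0.05. Tested genes that did not reach 10 CPM in any condition (Ifnlr1 and Il13ra1) are not drawn. Il12rb2 lies farthest to the left, and Il6st lies farthest to the right.

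Of 17 inhibitors of the pathway, 5 rose and 2 fell in Tfh against Th1, 1 rose and 1 fell in Th17 against Th1, and 2 rose and 2 fell in Tfh against Th17, with medians of 0.12, -0.08 and 0.18. In these comparisons 10, 15 and 13 of the 17 were not called, where 49.3%, 36.9% and 16.8% of all genes were called. Such counts show nothing particular to the inhibitors. Cish, an inhibitor that STAT5 induces, was at 457 ± 196 CPM in Th1, 260 ± 75.6 CPM in Th17 and 80.3 ± 24.8 CPM in Tfh (SD, n = 5 each), and Th1 and Th17 overlapped. It fell in Tfh against Th17 by 1.69 on the log2 scale (edgeR adjusted p = 0.00035) and against Th1 by 2.51 (edgeR adjusted p = 8.52e-07). Socs5 rose in Tfh, to 34.5 CPM from 17.0 CPM in Th1 and 20.8 CPM in Th17. Pias1, which acts on STAT proteins in the nucleus, was higher in both Th17 and Tfh, at 103 and 101 CPM against 74.6 CPM. Ptpn6, the phosphatase SHP-1, rose in Tfh against Th17 to 243 CPM from 166 CPM.

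Known targets of each factor were counted from lists that were drawn up with results of these data known, so their directions are no independent evidence. The lists also share genes, which enter each count. Gzmb is on both the STAT4 and the STAT5 list. Il2ra, Il2rb, Il12rb2, Il23r and Il4ra were counted as receptors and again as targets, as were some inhibitors, Cish among them. Over all genes, 24.1% rose and 25.2% fell in Tfh against Th1, and 19.0% rose and 17.8% fell in Th17 against Th1. In Tfh against Th17, 6.8% rose and 9.98% fell. Of 11 STAT5 targets, 1 rose and 8 fell in both comparisons with Th1 and 7 fell in Tfh against Th17, with medians of -2.24, -1.0 and -0.81. Lta, which encodes lymphotoxin alpha, was at 1385 ± 376 CPM in Th1, 235 ± 47.7 CPM in Th17 and 57.8 ± 15.6 CPM in Tfh (SD, n = 5 each) without overlap. Prdm1, which encodes the repressor Blimp-1, was at 26.0 CPM in Th1 and under 1 CPM on average in the other conditions, at 0.574 and 0.115 CPM. Foxp3 was the member that rose, to 7.2 CPM in Th17 and 13.0 CPM in Tfh from 0.483 CPM.

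Of 10 STAT4 targets, 1 rose and 9 fell in Tfh against Th1, 1 rose and 7 fell in Th17 against Th1, and 1 rose and 2 fell in Tfh against Th17, with medians of -3.59, -3.81 and 0.00. The list holds Ifng, and interferon gamma positivity is the sort given for the Th1 cells. Gzmb, which encodes granzyme B, was at 438 ± 16.0 CPM in Th1 and at 0.620 and 1.63 CPM in Th17 and Tfh. The member that rose was Il10, at 1.95 CPM in Th1, 9.29 CPM in Th17 and 20.5 CPM in Tfh, which is also on the STAT3 list.

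Of 15 STAT3 targets, 8 rose and 2 fell in Tfh against Th1, 9 rose and 1 fell in Th17 against Th1, and 3 rose and 4 fell in Tfh against Th17, with medians of 2.07, 2.07 and 0.00. This list holds Il17a, and the sort given for the Tfh cells was without IL-17A. Maf, which encodes c-Maf, was at 10.7 ± 2.75 CPM in Th1, 798 ± 194 CPM in Th17 and 1630 ± 350 CPM in Tfh (SD, n = 5 each). Il17f was at 7.56 CPM in Th1, 11253 CPM in Th17 and 4434 CPM in Tfh, and Fosl2, an AP-1 factor that fell in all 3 comparisons, at 352, 234 and 138 CPM. Stat3 itself differed between Tfh and Th17 by -0.03, while 7 of these 15 genes were called there.

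Of 10 STAT2 targets 4 passed the filter on low counts. In Th17 against Th1, 4 fell, in Tfh against Th1, 2 fell, and in Tfh against Th17, 1 rose and 1 fell, with medians of -3.01, -2.65 and 0.77. Usp18, an interferon-induced protease, was at 20.3 CPM in Th1, 1.32 CPM in Th17 and 1.38 CPM in Tfh, and Irf7 at 11.7, 2.73 and 8.58 CPM. Of 8 STAT6 targets 5 were tested, and Il4, Il5 and Il13 were removed for low counts. In each comparison with Th1, 2 rose and 1 fell, and in Tfh against Th17, 2 rose and 3 fell. The medians were -0.02 in Tfh against Th1, 0.37 in Th17 against Th1 and -0.57 in Tfh against Th17. Gata3, the Th2 regulator, was at 24.4 ± 2.82 CPM in Tfh against 7.39 ± 3.4 CPM in Th1 and 6.82 ± 1.45 CPM in Th17 (SD, n = 5 each), while Il24 was at 725 CPM in Th1, 5.17 CPM in Th17 and 0.194 CPM in Tfh.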

How the data were processed

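Messenger RNA was measured in 15 bulk libraries of sorted CD4 T cells. The authors deposited raw counts of reads for each gene, listed by Entrez ID. Per the submitters' processing notes, the authors used STAR 2.7.2b, featureCounts 1.6.4 and the mm10 build. The sources used here do not give the annotation, the strand setting or the handling of reads with several matches. The files of single samples equal the columns of the series table. The lowest chi-square per gene between libraries of 1 condition was 9.79, so none was a repeat deposit within sampling noise.

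Counts were fitted in edgeR 4.0.16 (TMM factors, quasi-likelihood test, 1 fit of the 15 libraries, no covariates) on the 12591 genes kept by filterByExpr, which removed 5472 other genes with a count. Calls used a Benjamini-Hochberg adjusted p under 0.05 over these genes, and CPM used TMM library sizes. The procedure was tested on simulated data. Ratios within libraries were tested by exact permutation. Lengths and exons came from GENCODE vM21, and promoter sequences from RefSeq (GRCm38.p6). Alternatives used DESeq2 1.42.0, limma 3.58.1 (voom), other scalings and filters, GC correction, a replicate block, fewer conditions and each library left out in turn.

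Same-numbered libraries of different conditions correlated at -0.102 to 0.57, with 7 of 15 pairs over 0.1. The pairs of libraries numbered 4 had 0.444 to 0.57, and those numbered 2 had 0.129 to 0.226. Th17 and Th1 libraries numbered 1 had 0.346, and all remaining pairs had at most 0.061. The fit of the 15 libraries did not pair them by number, and whether some numbers mark a shared origin was not tested. The members and lists were chosen with earlier results of these data known. From each list, the text names up to 2 genes per direction and comparison with the largest changes among those called, without overlap and at 10 CPM or more, and any member of the short lists of kinases and receptors. The untested Il4, Il5 and Il13 are named to complete a count. One further gene of the family is not reported here.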

Additional observations from a re-analysis of the deposited data

Results flagged for a closer look

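In a group of 5 libraries a value was picked out when its gap to the nearest other, over the whole range, passed Dixon's critical value of 0.71. Of 27 groups of Stat levels and ratios, 4 had such a library, where chance alone would pick out about 1 in 20 independent groups. These groups are not independent, since the ratios are built from the levels. The Stat4 level and the Stat4 to Stat6 ratio picked out in Tfh replicate 2 rest on the same Stat4 counts.

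Stat3 stood at 508 CPM in Th17 replicate 4, above the 361 to 400 CPM of the other Th17 libraries. Stat4 stood at 142 CPM in Tfh replicate 2, above the 79.8 to 86.8 CPM of the other Tfh libraries, and the ratio of Stat4 to Stat6 in that library was 0.692, where the others had 0.327 to 0.386. The ratio of Stat3 to Stat5a plus Stat5b was 1.17 in Tfh replicate 1, the library of lowest depth, where the others had 0.884 to 0.940. The coefficient of deviation with GC content was 0.70 in Th17 replicate 4, -0.45 in Tfh replicate 2 and 0.05 in Tfh replicate 1, and its part in these values was not tested.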

How the results depend on the processing

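Over the 18 fold changes of Stat genes, 419 of 468 alternative values kept their direction and their side of the threshold. All values for Stat4 and Stat5a did so, as did those for Stat2 against Th1. Genes called in Tfh against Th17 numbered 2113, against 3366 with GC correction and 3862 with GC correction and the replicate block. With the replicate block alone they were 2941, 6923 in Tfh against Th1 and 5487 in Th17 against Th1, and 5 of 15 libraries had a library of their own number as the closest among those of other conditions.

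Of values at or near 0, Stat3 in Tfh against Th17 was 0.00 with library size only, upper-quartile factors or GC correction with the replicate block. Stat6 was -0.02 in Tfh against Th1 and -0.05 in Th17 against Th1 with RLE factors, the strict filter or DESeq2, -0.00 in Tfh against Th1 with only the 2 conditions, and -0.03 in Th17 against Th1 with upper-quartile factors. Stat3 missed the threshold at 0.39 in Tfh against Th1 with only the 2 conditions (edgeR adjusted p = 0.0563) and at 0.38 in Th17 against Th1 with RLE factors (0.0502). Stat5b passed it in Th17 against Th1 with GC correction and the replicate block, at -0.23. Stat5a and Stat5b summed differed by -0.12 between Tfh and Th17, where Stat5a alone was at -0.59 and Stat5b alone at 0.09.

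Leaving out 1 library gave Stat2 -0.11 to 0.07, Stat3 -0.11 to 0.07 and Stat6 -0.06 to 0.08 in Tfh against Th17. It gave Stat3 0.32 to 0.47 and Stat6 -0.06 to 0.09 in Tfh against Th1, and Stat3 0.31 to 0.50 and Stat6 -0.09 to 0.08 in Th17 against Th1. The Stat4 to Stat6 ratio in Th17 against Th1 was -1.28 to -0.95. Other genes that changed sign were Il2rg (-0.13 to 0.01, Tfh against Th17), Il4ra (-0.10 to 0.02), Il7r (-0.18 to 0.05) and Irf9 (-0.01 to 0.11) in Tfh against Th1, and Ifnar2 (-0.03 to 0.08), Il2rb (-0.02 to 0.25) and Jak3 (-0.27 to 0.08) in Th17 against Th1. Il4ra was 0.05 in Tfh against Th1 with library size only. Ifnar2 was -0.02 in Th17 against Th1 with RLE factors, the strict filter or DESeq2 and -0.01 with GC correction, with or without the replicate block. The cause of each was not tested. Scaling moved the median of all genes by at most 0.06. Of the STAT2 and STAT6 target lists, 4 of 10 and 5 of 8 genes passed the count filter, and depth and lack of expression were not told apart for the others.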
